A study of Danio rerio with 9 samples.

Results

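The genes described here are 10 epidermal keratin and periderm genes of the zebrafish: krt4, krt5, krt8, cyt1, cyt1l, icn, icn2, agr1, anxa1c and eppk1. They were chosen by symbol from the 31953 genes of a deposited count table. The symbols of 5 (krt4, krt5, krt8, icn and eppk1) are also listed in a second deposited table, of cardiac against trunk crest, and the other 5 were found through a reference table of gene names.

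RNA was sequenced from sorted embryo cells in 3 groups of 3 libraries. Cardiac neural crest cells were mCherry-positive and non-crest cells mCherry-negative, dissected at 17 h (16 somites) from the stretch that runs from the midbrain-hindbrain boundary back to somite 6. All of these embryos carried -4.9sox10:GAL4-UAS-cre, in which sox10 regulatory sequence drives GAL4, along with the transgenes UAS:NfsB-mCherry (nitroreductase fused to the reporter) and myl7:nucGFP (nuclear GFP in heart muscle). Trunk crest cells were GFP-positive cells of somites 7 to 16 from Tg(-4.9sox10:eGFP) embryos at 24 h. The non-crest group therefore held whatever cells of the dissected tissue lacked the reporter, skin included. In bulk libraries, fewer cells of a type and less RNA per cell cannot be told apart.

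The skin of a zebrafish embryo has an outer layer, the periderm, which derives from the enveloping layer of the blastula, and a basal layer beneath it. Keratins are intermediate filament proteins in which a type I chain pairs with a type II chain, and they give epithelial cells mechanical strength. Neural crest cells leave the ectodermal epithelium as they begin to migrate, and periderm genes mark a different lineage.

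Depth ran from 34062539 to 45172404 gene reads per library for cardiac crest and non-crest, and from 25128422 to 29842884 for trunk crest over its listed genes. Transcripts of sox10, whose regulatory sequence drove the sorted reporter, measured 351 ± 101 CPM (counts per 1000000 reads in genes; SD, n = 3) for cardiac crest libraries and 21.1 ± 10.6 CPM for non-crest. Of the other crest markers, ets1 was higher in cardiac crest (log2 fold change 3.29 ± 0.49, edgeR adjusted p = 0.0179), while tfap2a stood at 3.35 ± 0.65 (edgeR adjusted p = 0.0510). The gene model of foxd3 shares 98.0% of its bases with another gene and held 0 reads in cardiac crest, and crestin was not analysed here. A pair of libraries stood apart. Non-crest replicate 3 correlated with the other non-crest libraries at 0.931 and 0.927 on the log2(CPM + 1) scale across genes, where those 2 reached 0.962. Cardiac crest replicate 3 held 7953 CPM of the muscle actin gene actc1b, against 4.54 and 13.8 CPM in replicates 1 and 2.

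The genes of the set that could be tested were far scarcer in cardiac crest than in the non-crest cells of the same tissue, except for krt8. The 10 genes together took 1.14 ± 0.572% of the reads of a non-crest library (SD, n = 3) and 0.0470 ± 0.00765% of a cardiac crest library. These shares rest on 8 genes, since cyt1 and cyt1l, whose gene models overlap others, could not be measured. In non-crest libraries krt4 alone held between 54.8% and 70.3% of the set's reads. Of the 10, 8 had enough reads to be tested, 7 of these were lower in cardiac crest by edgeR's quasi-likelihood test and 0 were higher, and krt8 did not pass. Over all 19648 genes tested, 1.5% passed in either direction and 1.21% were lower. In each of the 8 all cardiac crest libraries lay below all non-crest libraries, as did 8.26% of all genes tested. Of the 8, agr1 and anxa1c passed the filter on low counts through the non-crest libraries alone. The median log2 fold change of the 8 was -7.94, beside -0.04 over all genes tested.

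**Figure D1:**
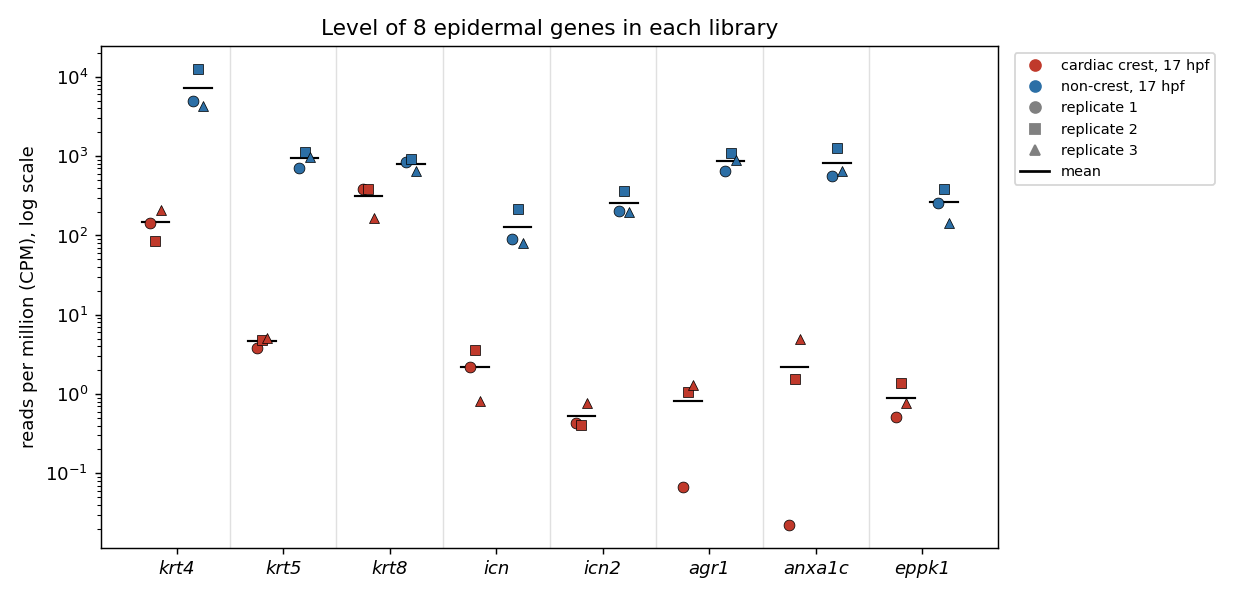
CPM (log axis) of the 8 tested genes in each library, red for cardiac crest and blue for non-crest, with the replicate as marker shape and the mean as a bar. Every cardiac crest library lies below every non-crest library for each gene, with the narrowest gap for krt8 and the widest for agr1.

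Among the type II keratin genes, transcripts of krt4, a keratin of the periderm and its precursor layer, were at 144, 86.2 and 210 CPM in cardiac crest replicates 1, 2 and 3 and at 4985, 12669 and 4352 CPM in non-crest. Non-crest replicate 2 was the highest and the groups lay 20.7-fold apart at their closest. By mean level krt4 ranked 8 among all genes in non-crest and 1272 in cardiac crest. Its log2 fold change came to -5.59 ± 0.59 (SE, edgeR adjusted p = 0.00456). The gene lies on chromosome 6, 39310962 to 39315491 (GRCz10, minus strand).

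For krt5, a keratin of the embryonic epidermis, levels were 3.83, 4.84 and 5.13 CPM in cardiac crest against 714, 1128 and 975 CPM in non-crest. Both groups were tight, the cardiac crest libraries within 1.34-fold and the non-crest libraries within 1.58-fold of each other. Their log2 fold change came to -7.68 ± 0.41 (edgeR adjusted p = 0.000528). Next to it on chromosome 23, 72167 bases away on the same strand, lies krt8.

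Transcripts of krt8, a keratin of simple epithelia, behaved unlike the other 7. They stood at 390, 381 and 165 CPM in cardiac crest against 843, 909 and 645 CPM in non-crest, so that cardiac crest held 39.0% of the non-crest level. The other 7 genes were at between 0.0923% and 2.00% of it. The groups did not overlap, though the lowest non-crest library was only 1.65-fold above the highest cardiac crest library. With a log2 fold change of -1.33 ± 0.39 krt8 missed the threshold (edgeR adjusted p = 0.206). It passed in 1 of 13 alternative fits, the one without replicate 3 of both groups (-1.11, edgeR adjusted p = 0.0475). In cardiac crest krt8 was the most abundant of the 10 genes in replicates 1 and 2, with 72.1% and 79.4% of the set's reads, and krt4 in replicate 3, with 54.1%. In the 3 non-crest libraries krt8 held between 5.04% and 10.16%.

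The S100-type calcium-binding genes icn and icn2, both of ictacalcin type, lie 54498 bases apart on chromosome 16, both on the plus strand. Levels of icn were 2.17, 3.58 and 0.818 CPM in cardiac crest against 90.3, 213 and 79.5 CPM in non-crest (a log2 fold change of -5.84 ± 0.67, edgeR adjusted p = 0.00578). For icn2 they were 0.425, 0.411 and 0.768 CPM in cardiac crest against 204, 366 and 198 CPM in non-crest (-8.87 ± 0.50, edgeR adjusted p = 0.000531). In both genes non-crest replicate 2 was high and the groups were wide apart, while cardiac crest replicate 3 was the lowest of its group for icn and the highest for icn2. In cardiac crest icn was at 1.72% of its non-crest level and icn2 at 0.209%.

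Transcripts of agr1, an anterior gradient gene of the protein disulfide isomerase family, were at 0.0672, 1.06 and 1.31 CPM in cardiac crest against 643, 1094 and 905 CPM in non-crest. Cardiac crest replicate 1 held 3 reads of it, where the other cardiac crest libraries held 36 and 53. This was the lowest of the set's fold changes, at -10.13 ± 1.04 (edgeR adjusted p = 0.00383), and it ranked 15 from the lowest of 19648 genes. Like anxa1c, agr1 passed the filter on low counts through the non-crest libraries alone, so its rank is not independent of that group's high level. The gene anxa1c encodes an annexin A1, a calcium-dependent binder of membrane phospholipids. Its levels were 0.0224, 1.53 and 5.01 CPM in cardiac crest against 559, 1260 and 649 CPM in non-crest. Here cardiac crest replicate 1 held a single read and replicate 3 held 202. Its log2 fold change came to -8.57 ± 1.45 (edgeR adjusted p = 0.0309), with a call that depended on the libraries used. Without cardiac crest replicate 2 the edgeR adjusted p was 0.211, and without non-crest replicate 1, 2 or 3 it was 0.0788, 0.112 or 0.145. With no filter it was 0.0501 and with a filter at 10 CPM in 3 libraries 0.0829.

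Epiplakin, encoded by eppk1, is a plakin that binds keratin filaments in mammals. Levels were 0.515, 1.38 and 0.768 CPM in cardiac crest against 259, 390 and 144 CPM in non-crest, again highest in non-crest replicate 2. For eppk1 a log2 fold change of -8.20 ± 0.56 was found (edgeR adjusted p = 0.00112), and 8.92% of the gene's bases lie inside fbxl6 on the other strand. Counting used no strand, and fbxl6 itself was at 38.4 ± 4.55 CPM in cardiac crest against 43.5 ± 11.3 CPM in non-crest. The 6 called genes other than anxa1c passed in all 13 alternative fits each, the highest adjusted p among them being 0.0449, for icn.

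The type I keratin genes cyt1 and cyt1l, named as cytokeratins of the enveloping layer, could not be measured. Over the 6 libraries cyt1l held 0 reads, and cyt1 held 0 in cardiac crest and 0, 5 and 1 in non-crest. A count of 0 over the 3 cardiac crest libraries allows up to 0.0252 CPM by counting error alone. That is no limit on the expression of cyt1 or cyt1l, because their models are shared. The gene models of both overlap those of other type I keratin genes on chromosome 19. The cyt1l model (5439935 to 5452965, minus strand) shares all of its bases with krt92, cyt1 and krt17. The cyt1 model (5445934 to 5464258) shares 67.31% with krt92, cyt1l, krt17 and krt91. All 4819 genes of the count table that share every base with other genes held 0 reads in these 6 libraries, against 7.34% of the 22001 genes that share none. The 0 reads of cyt1l and krt17, which share every base, are thus no measure of their expression. The krt91 model shares 98.82% of its bases and also held 0 reads.

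The neighbour krt92, with 55.87% of its bases shared, did collect reads. Its levels were 9.36, 4.46 and 5.92 CPM in cardiac crest against 884, 2897 and 809 CPM in non-crest (a log2 fold change of -7.78 ± 0.72, edgeR adjusted p = 0.00291). Every cardiac crest library was far below every non-crest library, and non-crest replicate 2 was again the highest.

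**Figure D2:**
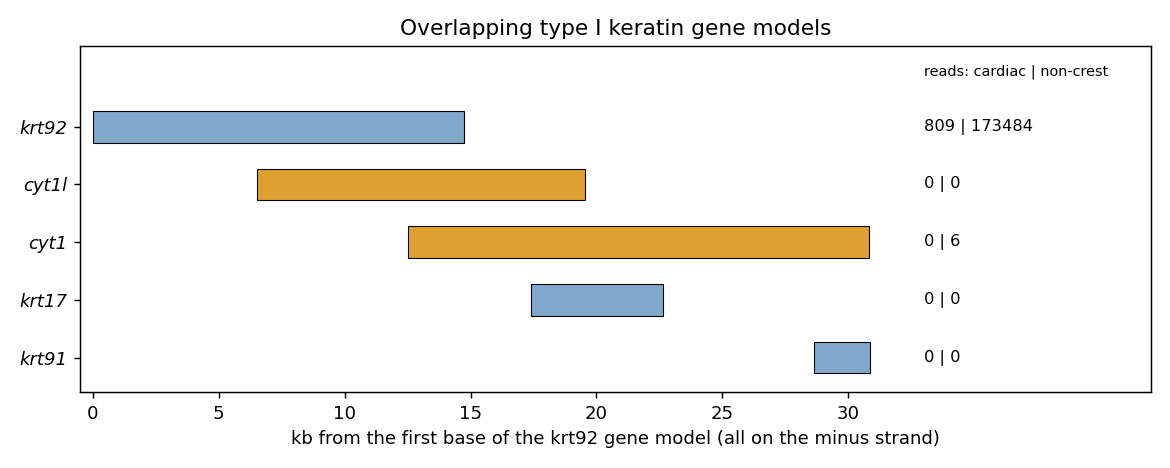
Gene models of 5 type I keratin genes drawn to scale, in kb from the first base of krt92, with cyt1 and cyt1l in orange and the summed reads of the 3 cardiac crest and 3 non-crest libraries at the right. Reads went to krt92 (809 and 173484), whose model is only partly shared, while the others held between 0 and 6.

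The 8 genes did not differ between the groups by one common factor. In non-crest libraries, 55.2, 59.6 and 54.8 reads of krt4 were counted for each read of icn, close to a fixed ratio. In cardiac crest the same ratio was 66.2, 24.1 and 257. For agr1 the ratio of krt4 reads was 7.76, 11.6 and 4.81 in non-crest and 2139, 81.6 and 160 in cardiac crest. For anxa1c it was 8.92, 10.1 and 6.70 in non-crest and 6417, 56.5 and 41.99 in cardiac crest. For icn, agr1 and anxa1c the cardiac crest libraries thus did not share a proportion. The icn ratio of replicate 1 was near those of non-crest. For agr1 and anxa1c the replicate 1 ratios rest on 3 reads and 1 read. Ratios were steadier for icn2, at 338, 210 and 274 in cardiac crest against 24.4, 34.6 and 22.0 in non-crest. They were 37.5, 17.8 and 41.0 against 6.98, 11.2 and 4.47 for krt5. For eppk1 they were 279, 62.5 and 274 against 19.3, 32.5 and 30.2. For krt8 they were 0.368, 0.226 and 1.28 against 5.91, 13.9 and 6.75. Against the non-crest mean, krt4 was at 1.96%, 1.18% and 2.87% in cardiac crest replicates 1, 2 and 3, and krt5 at 0.408%, 0.516% and 0.546%. In contrast, anxa1c was at 0.00272%, 0.186% and 0.609%. For both agr1 and anxa1c replicate 1 was by far the lowest. Among the non-crest libraries, replicate 2 was the highest for each of the 8 genes.

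**Figure D3:**
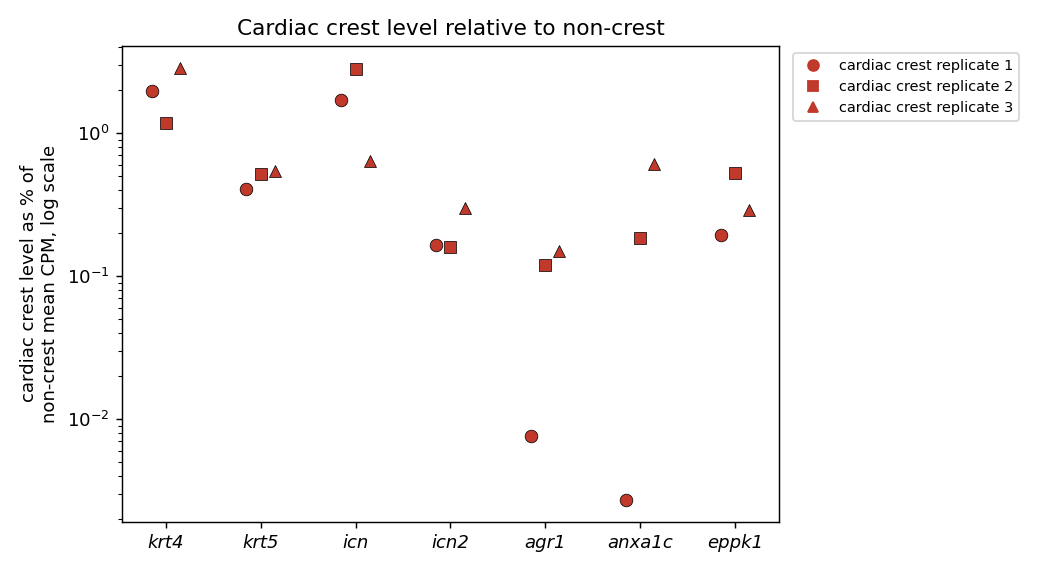
Level of 7 genes in each cardiac crest library as a percentage of the non-crest mean CPM (log axis), with krt8 left out. krt4 and icn lie highest, up to 2.87% and 2.81%, and agr1 and anxa1c in replicate 1 lie lowest, at 0.00763% and 0.00272%.

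Neighbouring genes on the chromosome were compared to see whether the drop extended past each gene. Beside anxa1c on chromosome 5, 550 bases away, anxa1b was lower in cardiac crest (log2 fold change -6.60 ± 0.65, edgeR adjusted p = 0.00323), and so was zgc:110283 on the other side (-5.97 ± 1.11, edgeR adjusted p = 0.0449). The S100 gene s100w, upstream of icn, was lower too (-9.63 ± 1.16, edgeR adjusted p = 0.00688). Its level was 15.6 ± 7.18 CPM in non-crest and 0.0196 ± 0.0339 CPM in cardiac crest. With 0, 2 and 0 reads in cardiac crest, it too passed the filter on low counts through the non-crest libraries alone. The type I keratin gene krt18a.1 lies 93562 bases from krt8 and was at 292, 261 and 158 CPM in cardiac crest against 974, 1914 and 965 CPM in non-crest (-2.40 ± 0.41, edgeR adjusted p = 0.0306). Together with krt8 and krt4 it was 1 of 3 keratin genes with a mean above 100 CPM in cardiac crest. Beside krt4, 1776 bases away, si:dkey-195m11.11 was at 0.163 ± 0.0689 CPM in cardiac crest against 3.76 ± 2.86 CPM in non-crest, without overlap, and missed the threshold (-4.42 ± 0.89, edgeR adjusted p = 0.0604). The neighbour of cyt1l, krt92, was lower, as given above (-7.78 ± 0.72, edgeR adjusted p = 0.00291). The remaining tested neighbours outside the set lay between -0.15 and 0.11. Among them were snx27b beside icn2 at 0.11 ± 0.58 (edgeR adjusted p = 0.969), traf3ip1 beside agr1 at -0.10 ± 0.73 (0.979) and pleca beside eppk1 at -0.15 ± 0.27 (0.901).

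Further genes of the same families and skin layers were read from lists. Of the 18 other keratin genes 11 could be tested, and 2 fell (krt92 and krt18a.1), 0 rose and 9 did not pass, with a median log2 fold change of -2.50. DESeq2 called 6 of them lower. A single call was left without any 1 of the cardiac crest libraries, and without non-crest replicate 1 or 2. The periderm list also held genes of cell junctions, and 6 of its 12 tested genes fell and 0 rose (median -4.10). Those with the largest change were PPL, the periplakin gene (-7.03 ± 1.31, edgeR adjusted p = 0.0444), and evpla, an envoplakin gene (-6.84 ± 1.09, edgeR adjusted p = 0.0243), both encoding plakins of the cornified envelope in mammals, followed by anxa1b. The calpain protease gene capn9 was also among them (-6.31 ± 0.69, edgeR adjusted p = 0.00488). The count was 3 without cardiac crest replicate 1, 2 without cardiac crest replicate 2, 3 without non-crest replicate 2, and 4 without non-crest replicate 1 or 3; without replicate 3 of both groups it was 8. The periderm genes krt17 and cldne held 0 reads, their models lying wholly inside others.

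In the basal epidermis the picture was different in number, though the lists were not tested against each other. Of 19 basal genes 1 fell, ovol1a, a zinc finger gene (-6.26 ± 1.19, edgeR adjusted p = 0.0481), 0 rose, and the median was -0.90. The basal count was 0 without cardiac crest replicate 2, cardiac crest replicate 3 or any 1 non-crest library, and with upper-quartile scaling. Of the 12 periderm genes 10 had an unadjusted p under 0.05 and DESeq2 called 9 lower. In 9 of them all cardiac crest libraries lay below all non-crest libraries. At an unadjusted p under 0.05 there were 6 basal genes, and DESeq2 called 2. In 6 basal genes all cardiac crest libraries lay below all non-crest libraries, as in 8.26% of all genes tested. Among those 6 were krtt1c19e, a type I keratin gene (-4.93 ± 1.64, edgeR adjusted p = 0.283), and epcam, an epithelial adhesion gene at 41.5, 105 and 175 CPM in cardiac crest against 403, 804 and 230 CPM in non-crest (edgeR adjusted p = 0.170). The basal regulator gene tp63 was at 33.7, 27.2 and 46.5 CPM in cardiac crest against 36.4, 113 and 3.96 CPM in non-crest (-0.40 ± 0.86, edgeR adjusted p = 0.917). For tp63, non-crest replicate 3 thus lay below every cardiac crest library. The E-cadherin gene cdh1 was at 45.8 ± 17.9 CPM in cardiac crest against 121 ± 64.3 CPM in non-crest (-1.36 ± 0.46, edgeR adjusted p = 0.290). These 4 were chosen after their values were seen. No ionocyte gene of 11 and no desmosome gene of 6 passed edgeR's test. At an unadjusted p under 0.05 there were 2 and 3, and DESeq2 called 2 and 1. Without replicate 3 of both groups edgeR called 3 and 2. It called 1 ionocyte gene without replicate 3 of either group alone, and 1 desmosome gene without non-crest replicate 3, with no filter or with size factors of the DESeq2 type (RLE). The largest changes were in GCM2, a regulator of ionocytes (-6.91 ± 2.08, edgeR adjusted p = 0.226), and pkp1b, a plakophilin gene (-4.15 ± 0.81, edgeR adjusted p = 0.0517).

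Among the annexins 3 of 13 tested genes fell and 0 rose: anxa1b, anxa2a (-6.35 ± 0.45, edgeR adjusted p = 0.00112) and anxa1a (-3.63 ± 0.63, edgeR adjusted p = 0.0339). The median of the 13 was -0.62, and 10 did not pass. Both anxa1a and anxa1b are also counted in the periderm list. The annexin count was 2 without cardiac crest replicate 1, cardiac crest replicate 2 or non-crest replicate 2. Of 9 tested S100 genes outside the set 5 fell and 0 rose (median -2.28). They included s100w, s100v1 (-6.45 ± 0.75, edgeR adjusted p = 0.00617), s100v2 (-4.20 ± 0.43, edgeR adjusted p = 0.00369) and s100u (-2.98 ± 0.45, edgeR adjusted p = 0.02004). Leaving out non-crest replicate 1 or 2, or cardiac crest replicate 1 or 2, left 3 S100 genes lower, and without non-crest replicate 1 another was higher. DESeq2 called 5 lower and 2 higher, and edgeR without replicate 3 of both groups 5 lower and 1 higher. At the other end stood s100b, a gene of glia and crest derivatives in vertebrates, at 34.16 ± 10.801 CPM in cardiac crest against 1.43 ± 1.96 CPM in non-crest (4.70 ± 1.196, edgeR adjusted p = 0.143), chosen after its values were seen. The second anterior gradient gene, agr2, was at 39.6, 80.0 and 66.0 CPM in cardiac crest against 19.5, 19.7 and 24.0 CPM in non-crest (1.52 ± 0.35, edgeR adjusted p = 0.106). Its cardiac crest libraries all lay above the non-crest libraries, the reverse of agr1, and DESeq2 called it higher.

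**Figure D4:**
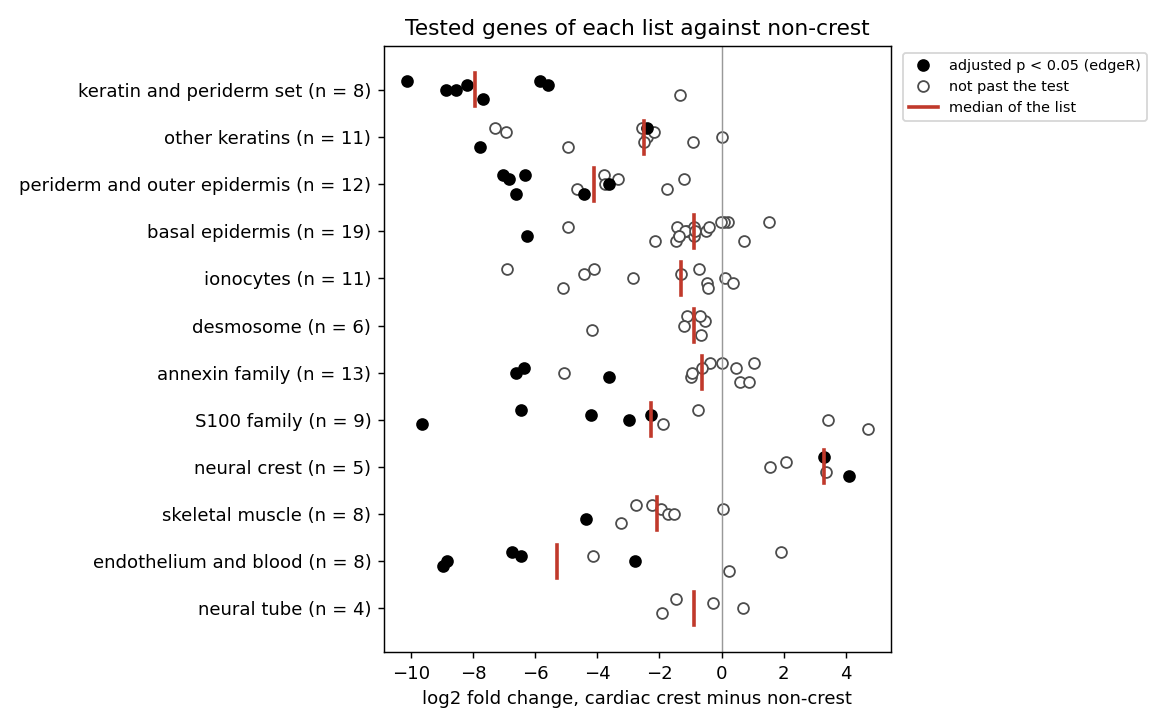
Log2 fold change of cardiac crest against non-crest for each tested gene of the set and of 11 further lists, filled where the edgeR adjusted p was below 0.05, with each list's median as a red line. The keratin and periderm set has the lowest median (-7.94), and basal epidermis lies nearer 0 (-0.90).

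Markers of other cell types were read beside these genes. Endothelial and blood markers summed to between 76.0 and 93.4 CPM in cardiac crest libraries and 598 and 1421 CPM in non-crest. Of the 8, 5 fell, and the median log2 fold change was -5.30. Leaving out replicate 1 of either group took that count to 1. It was 2 without replicate 2 of either group, or without non-crest replicate 3. The largest changes were in etv2 (-8.97 ± 1.38, edgeR adjusted p = 0.0217) and tal1 (-8.84 ± 1.38, edgeR adjusted p = 0.0227). Next came cdh5 (-6.75 ± 0.69, edgeR adjusted p = 0.00371) and hbae3 (-6.46 ± 1.06, edgeR adjusted p = 0.0271). Of 8 skeletal muscle markers 1 fell, tnnt3a (-4.36 ± 0.69, edgeR adjusted p = 0.0237). The 8 summed to between 19.3 and 8518 CPM in cardiac crest, the highest in replicate 3, and 6895 and 10157 CPM in non-crest. The muscle count was 6 without replicate 3 of both groups and 3 without cardiac crest replicate 3. It was 0 without replicate 1 or 2 of either group. By edgeR none of 4 neural tube, 5 notochord and 4 endoderm markers passed. At an unadjusted p under 0.05 there were 2, 0 and 1, and DESeq2 called 1, 0 and 1. In the same order, the largest changes were in pax6a (-1.93 ± 0.56, edgeR adjusted p = 0.206), col8a1a (-1.60 ± 1.58, 0.790) and hhex (-6.22 ± 1.64, 0.163). Summed neural tube markers spanned 219 to 497 CPM in cardiac crest against 275 to 941 CPM in non-crest, overlapping, and SOX2 and SOX3 held 0 reads, their models lying wholly inside others. The part of any of these cell types in the epidermal differences was not tested. Without replicate 3 of both groups 8 of the 10 epidermal genes were called, where 752 of all 20068 genes tested were called. The main fit called 294 of 19648.

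The genes whose pattern over the 6 libraries was most like the set's mean were searched among 9132 genes at 10 CPM or more in one group. Likeness was Pearson's r of log2(CPM + 1) with the mean of the set's standardised values, given as a description. The 8 highest were si:ch211-105c13.3, zgc:193505, anxa2a, tgm1l4, fut9b, si:ch211-153b23.4, clec14a and ano1, with r between 0.997 and 1.000. Among them were a second annexin and a transglutaminase gene, while clec14a is an endothelial gene, and both groups of libraries dominate each of these correlations. Of the set itself krt8 followed the mean least, at 0.883, and the other 7 lay between 0.980 and 0.998. Each of these genes is itself part of that mean, which raises its r.

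Against trunk crest, none of the epidermal genes that could be compared was called. Levels are in reads scaled by the library's size factor, as deposited. Axial level cannot be told apart from the stage, transgenic line, fluorescent reporter and library series, all of which differ here. Of the 5 listed genes 0 passed limma's test and 1 had an unadjusted p under 0.05 (krt4), and edgeR on the reads recovered from the table called 0. Over all listed genes 23.2% passed limma's test and 24.9% of those tested passed edgeR's. The trunk levels of cyt1, cyt1l, icn2, agr1 and anxa1c were not analysed here.

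Trunk crest libraries disagreed with one another more than cardiac crest libraries did for krt4, krt5 and icn. For icn the highest trunk crest library was 20.4-fold above the lowest, against 3.95-fold in cardiac crest. The ranges were closer for eppk1 (2.70-fold against 2.24-fold) and the reverse for krt8 (1.25-fold against 2.55-fold). Scaled reads of krt4 were 4494, 2259 and 6106 in cardiac crest and 327, 77.4 and 2659 in trunk crest, so the groups overlapped through trunk crest replicate 3. Its log2 fold change came to 3.28 ± 1.15 (limma adjusted p = 0.0802). It was 2.10 by edgeR on recovered reads (edgeR adjusted p = 0.255), 2.08 without trunk crest replicate 2 (limma adjusted p = 0.153) and 4.63 without trunk crest replicate 3 (limma adjusted p = 0.00252). The authors' deposited value, with its sign turned to cardiac minus trunk crest, was 2.07. Scaled reads of krt5 were 120, 127 and 149 in cardiac crest and 498, 10.7 and 41.8 in trunk crest. The trunk crest libraries spanned a 46.7-fold range, with replicate 1 above every cardiac crest library. For krt5 the log2 fold change of 1.07 ± 1.15 (limma adjusted p = 0.545) became 2.57 without trunk crest replicate 1 (limma adjusted p = 0.0375) and -0.14 without trunk crest replicate 2. The authors' value for krt5, turned likewise, was -0.48. Different trunk crest libraries were thus high for krt4 and for krt5.

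Levels of krt8 were even across trunk crest, at 5962, 6385 and 7474 scaled reads, and overlapped with the 12208, 9976 and 4788 of cardiac crest. Its log2 fold change came to 0.35 ± 0.33 (limma adjusted p = 0.492), and 0.75 without cardiac crest replicate 3 (limma adjusted p = 0.0347). For icn, cardiac crest had 67.9, 93.9 and 23.8 and trunk crest 9.47, 193 and 186 scaled reads (-0.41 ± 1.12, limma adjusted p = 0.825), with a sign that changed when cardiac crest replicate 3 or trunk crest replicate 2 or 3 was left out. For eppk1 the values were 16.1, 36.2 and 22.3 against 5.92, 5.34 and 14.4 (1.49 ± 0.70, limma adjusted p = 0.161). Its groups did not overlap, as in 41.4% of all listed genes, on between 4 and 47 reads per library. In the authors' deposited table the adjusted p of these 5 genes ran from 0.232 for krt4 to 0.790 for krt5.

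Put on one scale, reads per 1000000 over the genes listed in both tables, both crest groups lay below non-crest for all 5 genes. The means of krt4 were 7455 ± 4748 in non-crest, 147 ± 62.8 in cardiac crest and 28.3 ± 39.3 in trunk crest (SD, n = 3). For krt5 they were 953 ± 217, 4.61 ± 0.698 and 5.18 ± 7.74, the 2 crest groups not differing beyond their spread. The lowest non-crest library was 60.0-fold above the highest trunk crest library for krt4, 51.1-fold for krt5, 15.4-fold for icn, 367-fold for eppk1 and 3.17-fold for krt8. Trunk crest and non-crest differ in age, line and body level and were deposited in separate tables, so no test was made between them.

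**Figure D5:**
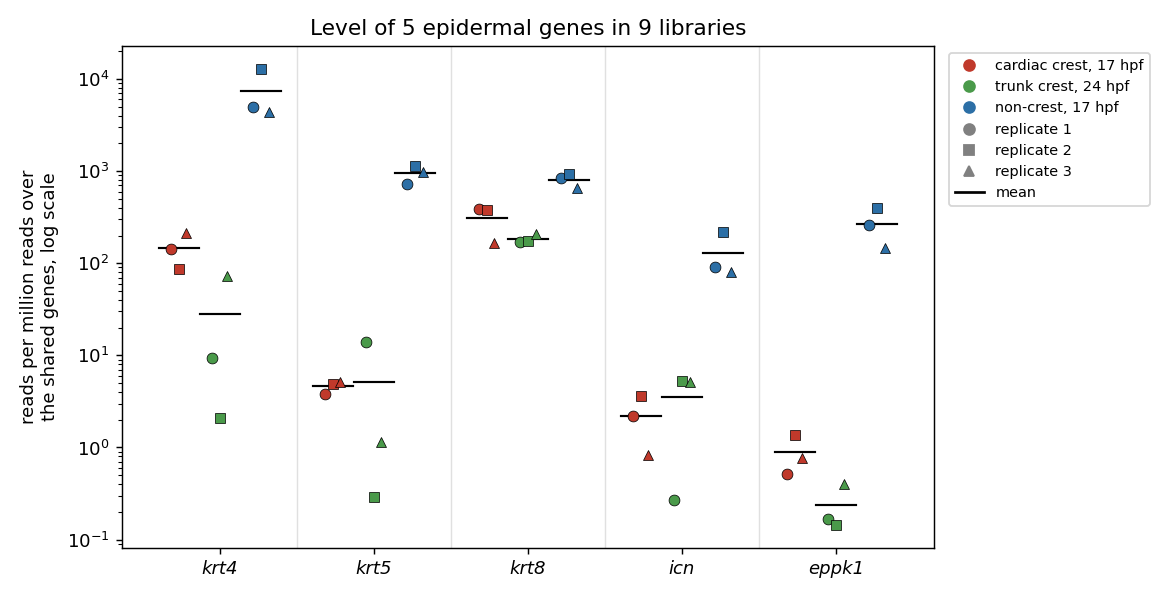
Reads per 1000000 over the shared genes (log axis) for the 5 genes listed in both tables, in cardiac crest (red), trunk crest (green) and non-crest (blue), with the replicate as marker shape and the mean as a bar. Non-crest lies above both crest groups for each gene, and the trunk crest libraries spread most for krt4, krt5 and icn.

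Related families were read in the same comparison. Of 13 listed annexin genes 8 were lower in cardiac crest than in trunk crest by limma and 0 were higher, against 12.5% lower over all listed genes, with a median log2 fold change of -1.90 beside 0.14 over all listed genes. Among them was anxa2a (-3.03, limma adjusted p = 0.000791). Of 10 listed keratin genes outside the set 1 was lower, krt18b, a type I keratin gene named after its value was seen (-4.33, limma adjusted p = 1.57e-05), and 0 were higher, a share of lower genes no larger than over all listed genes. Of 19 basal epidermis genes 6 were higher in cardiac crest and 1 was lower, against 10.7% higher over all listed genes. Those higher included tp63 (2.55, limma adjusted p = 0.00297), while cdh1 was the one that was lower (-2.22, limma adjusted p = 0.00104), both chosen after their values were seen.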

How the data were processed

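The authors aligned single-end reads with Bowtie2 to GRCz10, per the submitters' processing notes. The first table holds raw read counts per gene, made by the authors with featureCounts 1.5.1 over whole genes of Ensembl release 80, introns included and strand ignored, per the file headers. The second holds a normalised signal deposited by the authors, each count divided by a library size factor; the notes name DESeq without a version. Dividing by each library's smallest non-zero value gave whole reads for 100% of values (tolerance 0.02), matching the raw counts in every listed gene for cardiac crest. That table's deposited log2 fold changes and adjusted p-values are quoted only as the authors' own, and its deposited statistic (a score) and -log10 p columns were not used for tests. The cDNA kit adds no molecular identifiers, so limits from counts of 0 cover counting error only. Whether replicates are separate embryo pools is not given in the labels: p-values then reflect only library-to-library spread, possibly technical.

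Cardiac crest against non-crest was tested with edgeR 4.0.16 (quasi-likelihood, robust, TMM, default filter), and cardiac against trunk crest with limma 3.58.1 on log2(value + 1) with trend and robust prior. That scale understates fold changes at low levels. Benjamini-Hochberg adjustment ran over all genes, with calls below 0.05. Against non-crest, the SE was derived from edgeR's F (log2 fold change over its square root). Alternatives used DESeq2 1.42.0, other scalings, filters and pseudocounts, a replicate block, and fits without single libraries. The fits were also run on simulated data with a single fixed spread and smaller changes than those of the 7 called genes. No result here rests on that run. Genes and lists were chosen with earlier results of these data known. The text names the 10 genes, 5 crest check genes and the 8 genes most like the set. It names up to 4 called genes of each list, or the 1 with the largest change where none was called. Also named are chromosome neighbours, genes with overlapping models or 0 reads, actc1b, and genes marked as chosen after their values were seen.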

Additional observations from a re-analysis of the deposited data

How the results depend on the processing

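Against non-crest, between 6 and 8 of the 10 genes were called in the 13 alternatives, and all 7 called genes stayed lower in each. Against trunk crest the count was 0 in 9 of 13 alternatives, between 0 and 1 with a library left out, and 1 with the replicate number as a block, where krt4 passed (log2 fold change 3.28, limma adjusted p = 0.0136). The block left 7 calls against non-crest, ended the basal epidermis call (0 of 19), called 1 desmosome gene, and called 4 S100 genes lower and 1 higher. Whether the numbers pair the libraries was not settled. Same-numbered cardiac crest and non-crest libraries carry consecutive library numbers. Same-numbered deviations from the group means correlated at 0.03, 0.05 and 0.15 against non-crest and at 0.01, 0.03 and -0.00 against trunk crest. Not every library correlated best with its own number. With 3 libraries per group, such correlations cannot exclude a shared sort or batch. The direction of krt5 against trunk crest turned with edgeR on recovered reads (-0.44), and ranged from -0.14 to 2.57 with a library left out. That of icn ranged from -1.81 to 0.30. The cause was not tested. Calls over all genes against non-crest numbered 294, 1133 with DESeq2, 752 without replicate 3 of both groups, and from 93 (without cardiac crest replicate 2) to 361 with 1 library left out. Depth limits what can be said of agr1 and anxa1c in cardiac crest replicate 1, with 3 reads and 1 read.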

Other observations

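The S100 gene s100t, outside the rule for named genes and chosen after its values were seen, held 5009 reads in cardiac crest replicate 1 and 7 and 0 in replicates 2 and 3, with 2, 18 and 0 in non-crest. This put it at 112 CPM in 1 cardiac crest library and below 1 CPM in the other 5 libraries. The keratin gene krt99, likewise chosen after its values were seen, held 247, 0 and 82 reads in cardiac crest and 4709, 19985 and 13314 in non-crest, and its log2 fold change of -6.93 ± 1.52 did not pass (edgeR adjusted p = 0.0885).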
